A study of Mus musculus with 4 samples.

Results

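miR-204 and miR-211 are 2 mouse miRNAs with the same seed, the bases by which a miRNA pairs with its targets, and both are known from pigment cells. They were picked out as the probes named mmu-miR-204 and mmu-miR-211, 2 of 566 mouse miRNA probes of a nanoString nCounter panel, an assay that tags every miRNA molecule with a fluorescent barcode and counts the tags. The pair was chosen by name, with its normalized counts in these 4 samples and their difference between oncogenic and normal cells already known, so that difference is described without a test.

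Epidermal cells of adult mouse back skin were measured in 4 samples. The 2 oncogenic samples came from R26stoprtTA/+ Col-tetO-YAPS127A/+ K14-Cre mice, in which the K14 promoter drives Cre in basal keratinocytes and doxycycline then induces YAP S127A, a constitutively active form of the Hippo pathway coactivator YAP. The 2 normal samples came from R26stoprtTA/+ Col-tetO-YAPS127A/+ mice, which carry the same transgenes without Cre. Both groups drank doxycycline at 1 mg/ml for 8 days. For the normal group 6 control animals are recorded, but the labels do not tie samples to separate animals. The p-values therefore reflect the spread between samples alone, and part of that spread may be technical.

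A miRNA represses mRNAs that pair with its seed, mostly in the region after the stop codon. Mir204 lies inside Trpm3 and Mir211 inside Trpm1, genes of ion channels of the TRPM family. Trpm1 is a transcriptional target of Mitf, the master regulator of melanocytes, and miR-211 is made from the same transcript. miR-204 is abundant in the pigment epithelium of the eye and is also made outside pigment cells, for example in the choroid plexus of the brain. In skin, melanocytes are a small share of the cells, and in adult mouse back skin they sit mostly in hair follicles.

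The mature strands are shown because their likeness bears on how far the probes can be told apart. They are RefSeq's, from the assembly GRCm38.p6, with the seed (bases 2 to 8 from the 5′ end) in capitals. The panel's names carry no arm. Older miRNA nomenclature used the plain names for the 5p strands, which are the strands that share a seed.
miR-204-5p: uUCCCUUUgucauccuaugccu
miR-211-5p: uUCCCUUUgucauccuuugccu

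The 5p strands are identical at 21 of 22 bases and differ by A17U, counted from the 5′ end with the miR-204 base first. The change lies outside the seed, so the heptamer complementary to both seeds is the same, AAAGGGA. Of 1679 mature mouse miRNA names in the RefSeq table, 3 have this seed, and the third, miR-7670-3p, was not matched to a probe of the panel. Probes for strands that differ at 1 base may share signal, and this was not tested.

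The hairpins are shown to place the shared 5p strand, in capitals, within each precursor. Mir204 is at chr19:22750605-22750672 and Mir211 at chr7:64205806-64205911, both on the plus strand, the strand of Trpm3 and of Trpm1. Each lies within the annotated span of its host gene, in an intron by the description used to choose the pair. The hairpins are 68 and 106 bases long.
Mir204: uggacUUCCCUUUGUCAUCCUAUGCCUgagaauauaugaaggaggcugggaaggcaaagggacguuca
Mir211: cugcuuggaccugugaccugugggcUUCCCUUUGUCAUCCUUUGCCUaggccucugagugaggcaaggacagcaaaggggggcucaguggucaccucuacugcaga

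The 3p strands have different seeds and are listed to show that only the 5p strands form a seed pair. No probe on the panel is named for a 3p strand of either gene.
miR-204-3p: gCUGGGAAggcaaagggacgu
miR-211-3p: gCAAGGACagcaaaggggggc

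The deposited values are normalized counts, that is, barcode counts multiplied by 1 factor per sample. The recovered miRNA counts per sample were between 53709 and 230284, and oncogenic replicate 2 was the shallowest, with 1 count worth 1.76 normalized counts there and between 0.861 and 0.878 in the other samples. Background was read from 33 probes for miRNAs of mouse herpesviruses, scaled like the miRNAs, and from 6 negative control probes, which are unscaled counts. Viral probes went up to 18.3 and 22.9 normalized counts in the oncogenic samples and 17.6 and 27.6 in the normal samples. A floor of 30 normalized counts was set above all of these. The lowest value any miRNA, mRNA or viral probe has is 1 count, so no value is 0.

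miR-204 was well above background in both normal samples and close to it in both oncogenic samples. It stood at 19.2 and 15.9 normalized counts in oncogenic replicates 1 and 2, against 331 and 164 in normal replicates 1 and 2. Both oncogenic values lay under both normal values, and the lower normal value was several times the higher oncogenic one. The group means were 17.5 ± 2.38 in oncogenic and 247 ± 118 in normal cells (SD, n = 2 each).

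In recovered barcodes, miR-204 gave 22 and 9 counts in the oncogenic samples and 377 and 190 in the normal samples. The exact Poisson 95% intervals, which cover counting error only, were 13.8 to 33.3 and 4.12 to 17.1 counts for the oncogenic samples and 340 to 417 and 164 to 219 counts for the normal samples. The intervals of the groups were far apart, and so were those of the 2 normal samples from each other. At the depth of the shallow oncogenic replicate 2, the levels of normal replicates 1 and 2 would have given 188 and 92.9 counts of miR-204, where 9 were read.

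**Figure D1:**
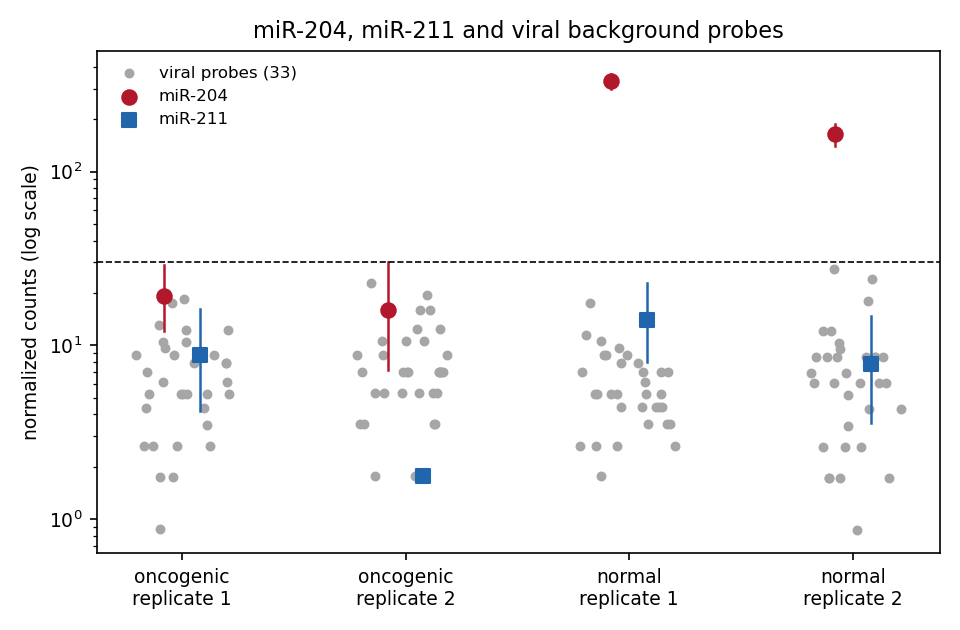
Normalized counts (log axis) of miR-204 (circles), miR-211 (squares) and the 33 viral probes (grey) in each sample; vertical lines are exact Poisson 95% intervals, left undrawn at the single count of miR-211, and the dashed line is the floor of 30. miR-204 stands above every viral probe in both normal samples and at the upper edge of them in both oncogenic samples, while miR-211 lies among them in all 4.

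Set against the background probes of its own sample, miR-204 reached 1.05 times the highest viral probe in oncogenic replicate 1 and 0.692 times in oncogenic replicate 2, against 18.8 and 5.94 times in normal replicates 1 and 2. In oncogenic replicate 2, 4 of the 33 viral probes were as high or higher, and in the other samples 0 were. All 6 negative control probes were lower than miR-204 in each of the 4 samples. The signal in oncogenic cells was thus at the upper edge of background, above negative controls but not separated from viral probes.

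By rank among the 566 miRNA probes, miR-204 was at place 146 in oncogenic replicate 1 and 167 in oncogenic replicate 2, against 43 in normal replicate 1 and 62 in normal replicate 2. In normal cells it belonged to the upper part of the panel, with 92.4% and 89.0% of miRNA probes lower, while in oncogenic cells it sat where the curve of ranked levels meets the viral probes. Its share of all miRNA counts was 0.00955% and 0.0168% in the oncogenic samples and 0.199% and 0.122% in the normal samples. The shares show the same order of groups as the normalized values.

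**Figure D2:**
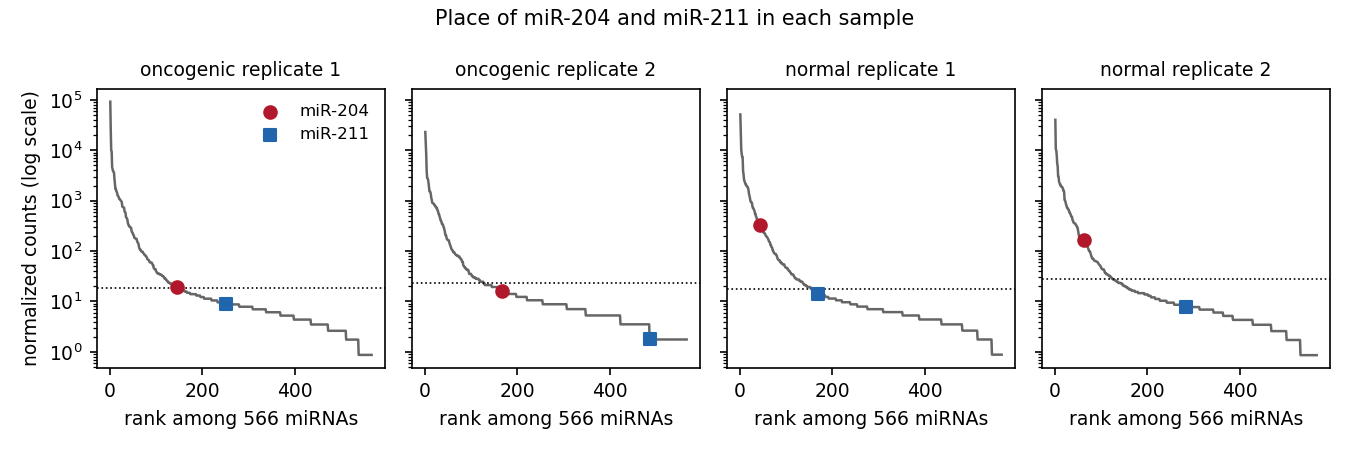
Normalized counts (log axis) of the 566 miRNA probes ranked from highest to lowest in each sample, with miR-204 (circle) and miR-211 (square) marked; the dotted line is the highest viral probe of that sample. miR-204 is at places 146 and 167 in oncogenic and 43 and 62 in normal samples, and miR-211 is under the dotted line in all 4.

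The log2 difference of miR-204, computed as oncogenic minus normal of log2(value + 1), was -3.66 (SE 0.52 from the spread within the 2 groups, n = 2 each). Relative to the median of the 124 tested miRNAs, those at 30 or more in at least 2 samples, it was -3.47. Among the tested miRNAs 38.7% had both oncogenic samples below both normal samples, as miR-204 did, and 12.9% had both above. Limma's adjusted threshold was passed by 4.03% of them in the lower direction, miR-204 included. The contrast was used to choose the pair, so nothing is read from these shares.

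Since both oncogenic values lie under the floor, the size of the difference is a lower bound. With oncogenic values raised to the highest viral probe of their sample where they lay under it, miR-204 was at least 11.1-fold lower in oncogenic cells. Only oncogenic replicate 2 was raised in this way, since oncogenic replicate 1 was already above its highest viral probe. With both values raised to 30, miR-204 was at least 7.76-fold lower. Counting error is not part of either bound. The bound by viral probes was 7.80 without normal replicate 1 and 15.8 without normal replicate 2, and the bound at 30 was 5.45 and 11.0. The higher of the normal samples thus moves the bound in either form. In bulk samples such as these, fewer cells that make miR-204 and less miR-204 per cell cannot be told apart.

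The 2 oncogenic samples differed 1.21-fold in miR-204, and the 2 normal samples 2.02-fold. On the log2(value + 1) scale the gap between the oncogenic samples was 0.26, and 89 of the 124 tested miRNAs had a larger one. The gap between the normal samples was 1.01, where the median size of this gap over the tested miRNAs was 0.40, and 20 of the 124 had a larger one. The small gap in oncogenic cells is one between values near background, while in normal cells miR-204 was among the more variable miRNAs.

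**Figure D3:**
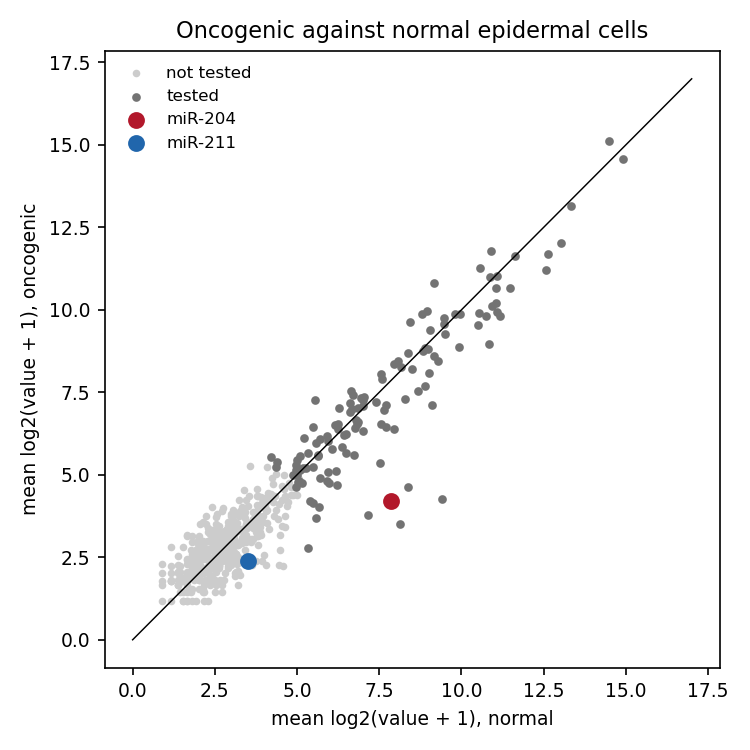
Mean log2(value + 1) in oncogenic (vertical axis) against normal samples (horizontal axis), 1 point per miRNA probe, with the 124 tested in dark and the others in light grey; the line marks equal values. miR-204 lies well under the line, with a difference of -3.66, and miR-211 lies within the cloud of untested probes.

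miR-211, the partner encoded in the Mitf target Trpm1, was at background in this preparation. It stood at 8.74 and 1.76 normalized counts in oncogenic replicates 1 and 2, against 14.1 and 7.75 in normal replicates 1 and 2. The groups overlapped, since oncogenic replicate 1 lay above normal replicate 2. All 4 values were under the floor of 30 and under the highest viral probe of their sample, so miR-211 did not enter the test and no fold is given.

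In recovered barcodes miR-211 gave 10 and 1 counts in the oncogenic samples and 16 and 9 in the normal samples. The exact Poisson 95% intervals were 4.80 to 18.4 counts for oncogenic replicate 1, 9.15 to 25.98 for normal replicate 1 and 4.12 to 17.1 for normal replicate 2. These 3 intervals overlap each other. For the 1 count of oncogenic replicate 2 the interval is 0.0253 to 5.57 counts, which overlaps those of oncogenic replicate 1 and normal replicate 2 but not that of normal replicate 1. This value is the lowest that any miRNA has there, and 83 of the scaled probes share it. At the levels of normal replicates 1 and 2 this sample would have given 7.98 and 4.40 counts of miR-211, the first above and the second within the interval of the count read.

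Of the 33 viral probes, 11 were at or above miR-211 in oncogenic replicate 1 and 33 in oncogenic replicate 2, against 1 in normal replicate 1 and 14 in normal replicate 2. Of the 6 negative control probes, 1 and 6 were at or above it in the oncogenic samples, against 0 and 2 in the normal samples. Normal replicate 1 is the sample in which miR-211 stood nearest to leaving the background. It is also the sample with the highest miR-204.

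The mean of miR-211 over the 4 samples was 8.08 normalized counts, and the mean over all viral probes and samples was 7.22. Over the 4 samples 9 viral probes had a mean at or above that of miR-211. The highest of these, mghv-miR-M1-7-5p, had 18.3 and 19.4 normalized counts in oncogenic and 17.6 and 27.6 in normal samples, and mcmv-miR-M44-1 had 2.62 and 22.9 in oncogenic and 8.78 and 24.1 in normal samples. The viral mghv-miR-M1-7-3p and mcmv-miR-m01-2 averaged 12.01 and 11.33 over the samples. Probes without a target in uninfected mice therefore varied over a range that holds every miR-211 value. By mean level the panel places miR-211 beside miR-216a and miR-762 just under it and miR-767 and miR-541 just over it, whose means were between 8.05 and 8.28.

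The log2 difference of miR-211 was -1.15 (SE 0.99 from the spread within the groups), within its own spread. Without oncogenic replicate 2 it was -0.24, and without oncogenic replicate 1 it was -2.06. The single count of oncogenic replicate 2 thus makes most of this value. Over 9 other settings, leaving samples out among them, it stayed negative, between -2.06 and -0.24.

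The values of the probes in each sample can be set side by side. The miR-211 probe read 45.5% and 11.1% of the miR-204 value in the oncogenic samples, and 4.24% and 4.74% in the normal samples. Probes differ in efficiency, so these shares do not give the ratio of the miRNAs. In the oncogenic samples both numbers are near background. Of the pair, the miR-204 probe alone was well above background, in the normal samples, and miR-204 is also made outside pigment cells. The strand tied to the melanocyte gene Trpm1 was not separated from background in any of the 4 samples. Whether the miR-204 signal came from pigment cells was not tested.

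The miRNAs whose profile over the 4 samples was most like that of miR-204 were found by the root mean square distance between log2(value + 1) values centred on each miRNA's mean. Of 123 tested miRNAs compared, the nearest was miR-181a, known from lymphocyte development, at a distance of 0.50, where the median distance was 1.84. It had 32.3 and 17.6 normalized counts in oncogenic and 300 and 362 in normal samples. miR-144, a miRNA of red blood cells, followed at 0.56, with 22.7 and 7.05 in oncogenic and 269 and 75.8 in normal samples. It shares with miR-204 the higher value in normal replicate 1, by 3.55-fold.

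The next were miR-199a-3p of stromal cells at a distance of 0.72, miR-146a of immune cells at 0.83, miR-126-3p of endothelium at 0.86 and miR-451 of red blood cells at 0.88. miR-199a-3p had 9.61 and 3.52 normalized counts in oncogenic and 42.2 and 37.0 in normal samples. Among these 6 miRNAs the order of the normal samples was not shared. Normal replicate 1 was the higher one for miR-144, miR-199a-3p and miR-146a, as for miR-204, and the lower one for miR-181a, miR-126-3p and miR-451. A likeness over 4 samples in 2 groups reflects mainly the difference between the groups.

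**Figure D4:**
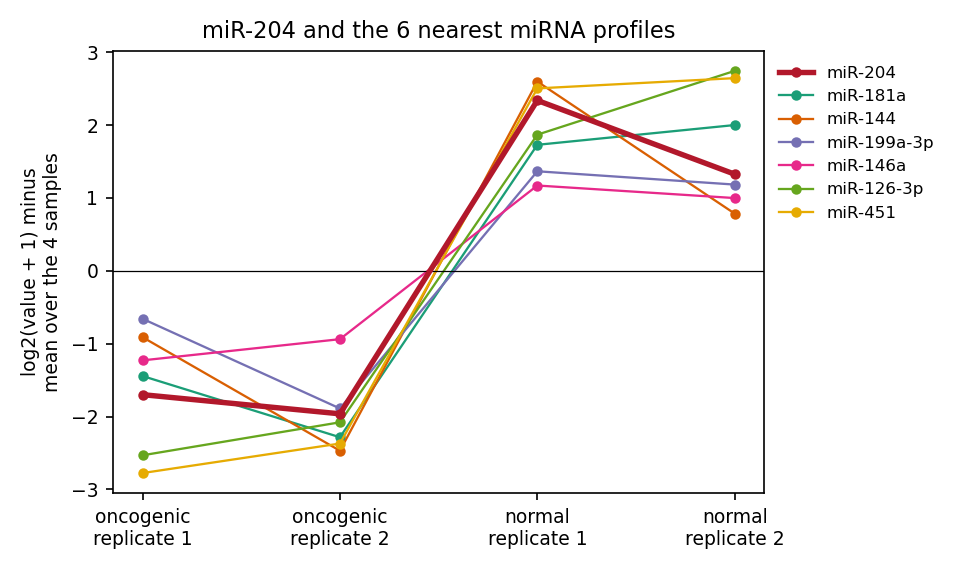
log2(value + 1) minus its mean over the 4 samples for miR-204 (thick line) and the 6 tested miRNAs nearest to it; lines join samples only to guide the eye. All 7 are below 0 in both oncogenic and above 0 in both normal samples, and they differ in which normal sample is higher.

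miRNAs that target Mitf transcripts in human cells were also listed. Mitf itself was not measured, and which cells these miRNAs came from was not tested. Of the 8, 5 were tested, and limma with Benjamini-Hochberg adjustment called 0 lower and 0 higher, where 4.03% and 0% of all tested miRNAs were called. All 5 had negative differences, as did 73 of all 124 tested miRNAs, with a median of -1.05 against -0.19 over all tested miRNAs. miR-148a, which also targets the DNA methyltransferase Dnmt1, had 108 and 68.7 normalized counts in oncogenic and 224 and 194 in normal samples (log2 difference -1.26, SE 0.36, limma adjusted p = 0.148). miR-101b had a log2 difference of -1.05 and miR-101a one of -1.63, both with a limma adjusted p of 0.208. The difference of miR-101a, of the family known for targeting Ezh2, was between -2.37 and -0.89 when a sample was left out. With the replicate number as a block miR-101a (limma adjusted p = 0.0268) and miR-148a (limma adjusted p = 0.0215) passed the threshold. These are 2 of the 5, beside 24 of all 124 tested miRNAs called lower in that setting. With samples centred on their medians miR-148b and miR-340-5p, at -0.42 and -0.52, turned positive.

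The other 3 of this list were too low to test. miR-137, for which targeting of Mitf in human melanoma cells is well known, had 6.99 and 5.28 normalized counts in oncogenic and 5.27 and 3.45 in normal samples, all within the range of viral probes. miR-182 had 33.2 and 24.7 in oncogenic and 20.2 and 15.5 in normal samples. miR-218 had 3.49 and 8.81 in oncogenic and 29.0 and 15.5 in normal samples, with the higher normal value in normal replicate 1, as for miR-204.

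Some markers of other cell types that a scraping of back skin can hold were lower in oncogenic cells, as miR-204 was, and their part in its difference was not tested. Of 3 red blood cell markers 2 were tested and miR-451 fell, with 15.7 and 21.1 normalized counts in oncogenic and 648 and 715 in normal samples (log2 difference -5.15, limma adjusted p = 0.00559). miR-144 did not pass (log2 difference -3.38, limma adjusted p = 0.142). miR-486, too low to test, had 7.86 and 19.4 in oncogenic and 24.6 and 23.25 in normal samples. The summed level of the 3 was 46.3 and 47.6 normalized counts in oncogenic and 942 and 814 in normal samples. Of 2 endothelial markers miR-126-3p was tested and fell, with 8.74 and 12.3 in oncogenic and 205 and 376 in normal samples (log2 difference -4.61, limma adjusted p = 0.0223), a call lost without normal replicate 2 (adjusted p = 0.0826). The endothelial sums were 11.4 and 17.6 in oncogenic and 223 and 400 in normal samples. The oncogenic sums of both lists lay under the normal ones with no overlap, as for miR-204. The same held for every other list except the neural list, so this order does not set these lists apart. Among single tested miRNAs 38.7% had this order.

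Of 6 white blood cell markers 5 were tested and miR-146a, a brake on innate immunity, fell, with 35.8 and 44.0 in oncogenic and 193 and 171 in normal samples (log2 difference -2.17, limma adjusted p = 0.0472). That call was lost without oncogenic replicate 2 (adjusted p = 0.0859), normal replicate 1 (0.260) or normal replicate 2 (0.203). The sums of this list were 334 and 440 in oncogenic and 621 and 492 in normal samples, much closer together than for miR-204. miR-155, the most abundant of them, had 208 and 268 in oncogenic and 229 and 159 in normal samples, which overlap. Of the 5 tested, 4 had negative differences and limma called 1 lower, where 4.03% of all tested miRNAs were called lower. The log2 differences of miR-142-3p, miR-150 and miR-223 were -1.51, -0.86 and -0.22, and none of these passed. miR-142-5p, too low to test, was higher in oncogenic samples, at 18.3 and 28.2, than in normal samples, at 10.5 and 15.5.

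Of 5 dermal and stromal markers miR-199a-3p was tested and did not pass (log2 difference -2.55, limma adjusted p = 0.0998). Its difference was between -3.16 and -1.93 when a sample was left out. The sums were 38.4 and 31.7 in oncogenic and 105 and 79.2 in normal samples, and 3 of the 5, among them miR-143 and miR-145 of smooth muscle and fibroblasts, lay at or under the highest viral probe in all samples. Of 5 neural markers 4 did so, and of 6 muscle markers 6, with sums of 42.8 and 51.1 in oncogenic and 53.6 and 59.4 in normal samples. The neural sums were 88.2 and 65.2 in oncogenic and 53.6 and 42.2 in normal samples, led by miR-138 at 59.4 and 35.2 in oncogenic and 27.2 and 11.2 in normal samples, which did not pass (limma adjusted p = 0.247).

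Of the 8 keratinocyte markers, miR-205 and miR-203 were abundant in every sample. miR-205 had 25839 and 23078 normalized counts in oncogenic and 23262 and 40291 in normal samples, and miR-203, which restricts keratinocyte stemness, had 9969 and 8229 in oncogenic and 10250 and 10451 in normal samples. These 2 make up most of the list's sums, 40384 and 34289 in oncogenic and 41073 and 58011 in normal samples, while the pair summed to 27.96 and 17.61 in oncogenic and 345 and 171 in normal samples. Other members of the list were less abundant, and their differences varied in direction. miR-200a, an epithelial miRNA that targets Zeb transcripts, had 746 and 338 in oncogenic and 1742 and 1916 in normal samples (log2 difference -1.86, SE 0.44, limma adjusted p = 0.114). miR-200b and miR-429 also had both oncogenic below both normal values, with log2 differences of -1.36 and -0.79. miR-200c had 729 and 801 in oncogenic and 719 and 710 in normal samples. Both of its oncogenic values lay above both normal values, by little (log2 difference 0.098, SE 0.222, limma adjusted p = 0.841). For miR-141 the groups overlapped (log2 difference -0.82, limma adjusted p = 0.555). miR-184 was within the range of viral probes, at 7.86 and 12.3 in oncogenic and 4.39 and 6.03 in normal samples.

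Of the 7 tested keratinocyte markers limma called 0 lower and 0 higher, where 4.03% and 0% of all tested miRNAs were called. A count of 0 among 7 is near that share, so it does not show that these markers were equal between the groups. Without oncogenic replicate 1, 4 of the 7 were called lower, beside 25 of all 124, and without oncogenic replicate 2, 2 were, beside 8 of 124. With all 4 samples DESeq2 on recovered counts called 2 of them lower, beside 9 of 124, and the replicate number as a block 2, beside 24 of 124.

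**Figure D5:**
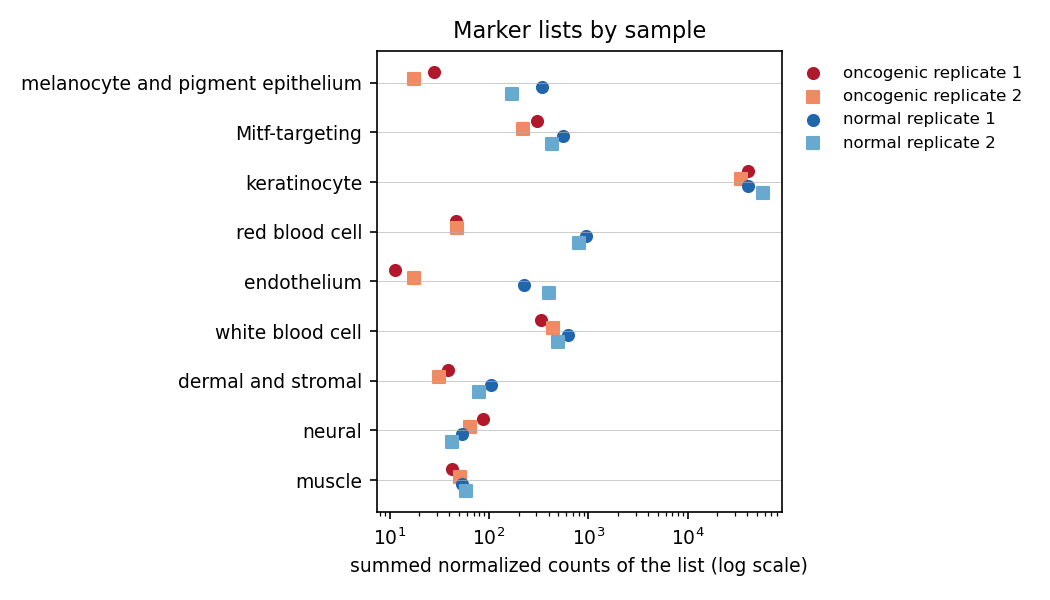
Summed normalized counts (log axis) of each miRNA list in the 4 samples, with circles for replicate 1 and squares for replicate 2, red shades for oncogenic and blue shades for normal samples. The red blood cell and endothelial lists lie far lower in both oncogenic samples, as does the pigment list, whose normal sums are mostly miR-204. The dermal and Mitf-targeting lists are lower in both by less. The keratinocyte, white blood cell and muscle lists lie closer together with oncogenic samples lower, and the neural list is higher in oncogenic samples.

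Across all 124 tested miRNAs limma called 5 lower and 0 higher in oncogenic cells, and at an unadjusted p under 0.05 it called 26 lower and 4 higher. The 5 include miR-204, which was chosen with this contrast known, so its call is not read as a test. The number lower was 25 without oncogenic replicate 1, 8 without oncogenic replicate 2, 3 without normal replicate 1 and 1 without normal replicate 2. With recovered counts, DESeq2 found 9 lower and 5 higher, and edgeR's quasi-likelihood test 1 lower and 0 higher.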

How the data were processed

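The nCounter miRNA assay was run on total RNA of 4 samples, per the labels' protocols. The signal column deposited for each sample was normalized before deposit; neither method nor software is given in the sources used here. By the values, miRNA, mRNA and viral probes are whole counts multiplied by 1 factor per sample (100% whole within 0.1 count), and counts were recovered by dividing by it. The main test was limma 3.58.1 (R 4.3.3) with a mean-variance trend on log2(value + 1), two-sided, over 124 miRNAs (at least 2 samples at 30 or more), Benjamini-Hochberg adjusted with a 0.05 threshold, and was checked on simulated data. Alternatives included edgeR 4.0.16 and DESeq2 1.42.0 on recovered counts. Poisson intervals came from SciPy 1.17.1. Named miRNAs are the pair, the 6 nearest profiles, the background probes nearest miR-211, the 4 highest viral probes, and members of the Mitf-targeting and cell type lists. Members and lists were chosen with earlier results of these data known. RefSeq sequences (GRCm38.p6) were matched by name for both members.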

Additional observations from a re-analysis of the deposited data

How the results depend on the processing

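The miR-204 difference stayed negative in the 9 alternatives that can change it, between -4.17 and -3.13. It was -3.13 with samples centred on their medians. That shift was just over the pooled log2 SD within the groups (0.52) and under the log2 SD of the normal samples (0.72). The difference was between -4.17 and -3.16 when a sample was left out. The miR-211 difference stayed negative in the same 9, between -2.06 and -0.24. The number of miRNAs lower in oncogenic cells (5) was 3 with scaling to the positive controls, 1 with edgeR, 9 with DESeq2 and 1 to 25 with a sample left out. The number higher (0) was 3 after centring, 5 with DESeq2 and 0 to 2 with a sample left out. With the replicate number as a block 24 were lower and 6 higher; deviations of same-numbered samples correlated at 0.66 over 124 miRNAs, but the labels do not say that the numbers pair the samples, and with 2 pairs this is only a hint. In a balanced design the block cannot change a difference, so it is no check on those of the pair. Of the marker calls, miR-451 passed in all 14 alternatives (adjusted p up to 0.0380), miR-126-3p in 12 (up to 0.0826) and miR-146a in 7 (up to 0.260); reading the alternatives for single miRNAs was chosen after seeing the data. The cause of these shifts was not tested. With 1 sample left in a group, that sample is assumed to vary like the other group. Counting error is large for miR-211, which rests on 1 to 16 counts per sample, all under the highest viral probe.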
